A study of Mus musculus with 13 samples.

Results

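Low-input ATAC libraries from 20000 mouse embryonic stem cells were set against libraries from 10000 cells of the same day, and the peaks listed at 20000 cells alone were described by width, place and nearest gene. The comparison took 4 of the 13 libraries of the series, chosen by cell number and experiment from their titles, and these 4 held 125271 of the 279669 peaks in all 8 ATAC lists. The cells were the E14 line (129/Ola background), an established line of 1 origin, grown unmodified in serum with Leukemia Inhibitory Factor (LIF), so no genotype or treatment separates the groups. Experiments 1 and 2 were run on different days, each with 1 library from 10000 and 1 from 20000 cells. The ATAC DNA and the mRNA came from the same lysate: the transposase Tn5 cut open chromatin first, and poly(A) RNA was then captured on beads.

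ATAC-seq marks DNA that nucleosomes leave free. Tn5 inserts there most often, and the insertions pile up into peaks that a caller separates from background. In embryonic stem cells the promoters of active genes are the most regular open sites, while distal open sites include enhancers, which carry the transcription factors that hold the pluripotent state. Each cell offers only a pair of alleles per site, so fewer cells give fewer distinct insertions at every site.

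A peak of the 20000-cell list was called gained when no base of it overlapped the 10000-cell list of its experiment, shared when at least 1 bp did, and lost peaks were those of the 10000-cell list without a partner at 20000 cells. The lists hold positions only, with no height or score, and give no read depth. Cell number and depth therefore cannot be told apart, and "gained" describes a list, not a change in the cells. Experiment 2 gave the longer lists: 29870 against 18877 peaks at 10000 cells, and 49508 against 27016 at 20000 cells. The 10000-cell list of experiment 2 was thus longer than the 20000-cell list of experiment 1, and the results are given by experiment. The cells carried the RNA of stem cells: all 20 listed pluripotency regulators reached 1 CPM (counts scaled to the total of the library) with a median of 87.7 CPM. For this and the other gene lists, the level is the mean of the 4 mRNA libraries. In single libraries Otx2 (mean 1.07 CPM) fell to 0.258 CPM at 10000 cells in experiment 2. Dppa3 stood at 0.947 CPM at 10000 cells in experiment 1. Of 12 fibroblast markers 6 reached 1 CPM, with a summed level of 43.3 and 44.7 CPM in experiment 1 and 17.2 and 16.9 CPM in experiment 2 (10000 then 20000 cells). Col3a1 was at 0, and Thy1, a surface protein, made up most of the sum in experiment 1, at 29.2 and 33.9 CPM against 6.77 and 7.05 CPM in experiment 2. Of 10 blood markers 1 did, with sums of 2.79 to 5.09 CPM. For 10 trophoblast and endoderm markers, of which 6 did and Elf5 was at 0, the sums were 74.3 to 84.5 CPM. Lama1 made up a large part of them, at 31.3 and 43.4 CPM in experiment 1 and 44.2 and 48.1 CPM in experiment 2. The part of such cells in the results was not tested.

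Promoter sequences show the scale of what was gained. The 5 promoters below are those of 1 pluripotency gene open in every list and of 4 genes whose promoter was gained in both experiments. They are RefSeq sequences of GRCm38.p6 (mm10), from 250 bases before to 50 after the RefSeq start, on the strand of the gene, and capitals mark the bases that lay inside the 20000-cell peaks of both experiments. They come from chr8:43306960-43307259 (minus strand) for Zfp42, chr2:153649199-153649498 (plus) for Dnmt3b, chr6:125286032-125286331 (minus) for Tuba3a, chr17:33824322-33824621 (plus) for Ndufa7 and chr11:119299994-119300293 (minus) for Eif4a3.
Zfp42: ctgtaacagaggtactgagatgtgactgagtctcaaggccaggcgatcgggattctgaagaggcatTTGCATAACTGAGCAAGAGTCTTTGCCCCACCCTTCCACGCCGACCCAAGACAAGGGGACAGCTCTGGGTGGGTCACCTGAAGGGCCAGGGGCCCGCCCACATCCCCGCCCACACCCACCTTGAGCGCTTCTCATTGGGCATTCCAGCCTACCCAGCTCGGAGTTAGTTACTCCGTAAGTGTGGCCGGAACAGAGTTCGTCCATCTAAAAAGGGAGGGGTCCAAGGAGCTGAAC
Dnmt3b: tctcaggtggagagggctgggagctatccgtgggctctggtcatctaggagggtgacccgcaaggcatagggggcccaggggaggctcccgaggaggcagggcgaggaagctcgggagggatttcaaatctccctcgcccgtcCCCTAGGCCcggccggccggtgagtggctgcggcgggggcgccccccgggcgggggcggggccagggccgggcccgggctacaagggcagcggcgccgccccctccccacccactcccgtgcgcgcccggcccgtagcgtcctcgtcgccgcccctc
Tuba3a: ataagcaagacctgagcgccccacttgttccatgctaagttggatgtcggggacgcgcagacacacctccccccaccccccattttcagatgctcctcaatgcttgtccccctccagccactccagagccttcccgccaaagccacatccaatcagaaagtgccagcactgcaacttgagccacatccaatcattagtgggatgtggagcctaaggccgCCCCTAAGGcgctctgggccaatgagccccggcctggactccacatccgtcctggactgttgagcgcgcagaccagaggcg
Ndufa7: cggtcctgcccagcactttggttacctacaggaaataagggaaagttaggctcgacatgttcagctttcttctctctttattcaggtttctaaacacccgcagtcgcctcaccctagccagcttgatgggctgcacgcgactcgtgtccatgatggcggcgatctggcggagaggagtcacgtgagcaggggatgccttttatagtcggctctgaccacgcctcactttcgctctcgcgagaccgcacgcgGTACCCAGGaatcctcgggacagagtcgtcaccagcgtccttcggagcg
Eif4a3: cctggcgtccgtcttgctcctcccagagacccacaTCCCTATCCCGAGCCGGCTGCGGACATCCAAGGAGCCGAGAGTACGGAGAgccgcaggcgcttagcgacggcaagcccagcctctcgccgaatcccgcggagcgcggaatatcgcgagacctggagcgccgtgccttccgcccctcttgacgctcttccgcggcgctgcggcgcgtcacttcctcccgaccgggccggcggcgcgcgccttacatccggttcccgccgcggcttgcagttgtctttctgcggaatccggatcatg
In Zfp42, which codes for the stem cell zinc finger protein Rex1, 234 bases were common to the 20000-cell peaks, and the 10000-cell peaks had already covered 120 bases of the window in experiment 1 and 234 in experiment 2. In the others the common stretch was 9 bases for Dnmt3b, Tuba3a and Ndufa7 and 50 bases for Eif4a3, and 0 bases were covered at 10000 cells. The windows were searched on both strands for the GC box GGGCGG, the CCAAT box CCAAT, the TATA box TATAAA, an ETS site CCGGAAG, the octamer ATGCAAAT, the NRF1 core TGCGCA and the E-box CACGTG, none of which contains another. The GC box was in the windows of Zfp42, Dnmt3b, Tuba3a and Eif4a3 and is in 46.3% of 16931 promoters. The CCAAT box was in those of Zfp42 and Tuba3a (39.5% of promoters), the octamer in that of Zfp42 (1.75%), and the TATA box and the E-box in that of Ndufa7 (13.4% and 8.12%). The ETS site (11.97%) and the NRF1 core (10.0%) had no match in these 5 windows. The table matched 73.7% of the promoters gained in both experiments, under the 80% needed, so no comparison of base composition between promoter groups was made.

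The 20000-cell lists were longer, and a little over 50% of their peaks had no partner at 10000 cells. Gained peaks numbered 14213 of 27016 in experiment 1 (52.6%, 95% Wilson interval 52.0% to 53.2%) and 25930 of 49508 in experiment 2 (52.4%, 51.9% to 52.8%), a mean of 52.5% ± 0.166 (SD, n = 2 experiments). With each 20000-cell list limited to as many of its widest peaks as its 10000-cell list holds, the shares were 40.2% and 31.15%, and with a peak in either 10000-cell list counted as a partner they were 31.4% and 48.2%. They held far less of the covered DNA than of the peaks: 0.451 Mb or 19.4% of the 20000-cell list in experiment 1, and 1.13 Mb or 18.8% in experiment 2. Loss was also common. Of the 10000-cell peaks 5872 (31.1%) in experiment 1 and 5288 (17.7%) in experiment 2 had no partner at 20000 cells. Of the gained peaks, 23.8% and 21.5% lay within 500 bp of a 10000-cell peak.

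The gained sites were not spread by chromosome in any marked way. Among the autosomes and X the gained share ran from 49.4% on chromosome 15 to 55.8% on chromosome 14 in experiment 1. In experiment 2 it ran from 48.97% on chromosome 8 to 54.8% on chromosome 18. The order of the chromosomes differed between the experiments: chromosome 14 stood at 52.5% and chromosome 8 at 51.5% in the other one.

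Gained peaks were narrow. Their median width was 9 bp in each experiment, which is the shortest width in the lists, against 117 and 163 bp for shared peaks of the same lists. Of gained peaks 62.1% and 52.5% were exactly 9 bp wide, against 15.6% and 8.54% of shared peaks, and 17.3% and 25.4% reached 50 bp, against 67.8% and 80.0%. Lost peaks were as narrow, with a median of 9 bp and 78.4% and 83.7% at 9 bp. A median difference of -131 bp ± 32.5 (SD, n = 2; -108 and -154 bp) separated gained from shared peaks.

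The wider a peak at 20000 cells, the more often it had a partner at 10000 cells. In experiment 1 the gained share fell from 81.6% of 9 bp peaks to 57.9% at 10 to 49 bp, 39.7% at 50 to 99 bp, 23.9% from 100 to under 200 bp, 9.83% from 200 to under 400 bp and 1.64% (12 of 731) at 400 bp and over. In experiment 2 the shares in the same order were 87.1%, 68.0%, 49.4%, 32.2%, 12.9% and 1.93% (66 of 3428). The fall was unbroken over these 6 bins in each experiment. Sharing needed only 1 bp of overlap, which a wider peak meets more easily. How much of the fall comes from that rule was not tested. No 10000-cell peak of 400 bp or more was lost in either experiment, while 54.3% and 39.0% of those of 9 bp were.

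**Figure D1:**
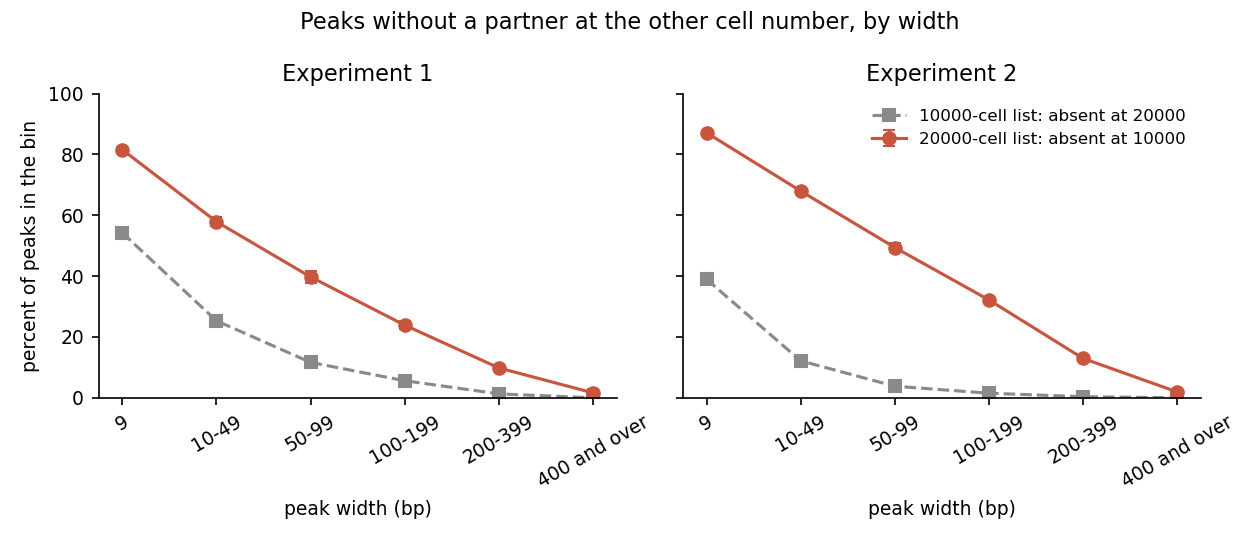
Share of peaks without a partner at the other cell number (y axis, percent of the peaks in a bin) against peak width (x axis, bp), for experiment 1 (left) and experiment 2 (right). Circles are gained peaks of the 20000-cell list with 95% Wilson intervals, squares are lost peaks of the 10000-cell list, and the circles fall from 81.6% and 87.1% at 9 bp to 1.64% and 1.93% at 400 bp and over.

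Shared peaks were also wider with more cells. Among 12532 shared peaks of experiment 1 that met a single 10000-cell peak, the median width was 56 bp at 10000 cells and 114 bp at 20000, and 61.2% were wider at 20000 cells, 24.8% narrower and 14.0% equal. Among 22508 such peaks of experiment 2 the medians were 70.5 and 154 bp, with 76.2% wider, 14.2% narrower and 9.63% equal. More input thus went with longer intervals at sites already listed, in the larger part of them, as well as with additional short ones.

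Gained peaks lay away from transcription start sites (TSS) more often than shared ones. A peak was called TSS-proximal when its nearer edge was within 1000 bp of the 5′ end of a gene in the count table, and distal otherwise. Proximal were 29.4% of gained peaks in experiment 1 (28.7% to 30.2%) against 44.9% of shared peaks (44.0% to 45.8%), and 23.9% (23.4% to 24.4%) against 38.7% (38.0% to 39.3%) in experiment 2. The difference was -15.1 percentage points ± 0.516 (SD, n = 2; -15.5 and -14.8). Lost peaks stood between, at 32.8% and 27.4%.

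Over all widths the difference was largest for peaks that cover a start site. A TSS lay inside 2.61% and 2.54% of gained peaks but inside 18.7% and 21.3% of shared peaks, and inside 1.48% and 0.454% of lost peaks. Read the other way, 13.5% and 11.6% of the 20000-cell peaks that covered a TSS were gained, against 53.1% and 57.5% of those 1 to 1000 bp away, 58.4% and 56.6% beyond that and up to 10000 bp, 59.45% and 57.8% up to 100000 bp, and 56.4% and 59.25% farther out. Among all peaks that did not cover a TSS the gained share thus changed little with distance. Among peaks of at least 50 bp it was 9.86% and 10.3% where a TSS was covered, 20.7% and 26.7% at 1 to 1000 bp, and 27.1% to 31.9% in the 3 classes farther out. Median distances were 10533 and 13609 bp for gained and 3459 and 6488 bp for shared peaks.

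Width and place are linked, since a wide peak covers a TSS more easily, so the proximal share was read within width classes. Gained peaks had the lower proximal share in all 12 classes, 6 per experiment. At 9 bp it was 28.2% of gained and 34.8% of shared peaks in experiment 1, and 23.5% and 27.9% in experiment 2. From 100 to under 200 bp it was 30.1% and 45.4%, then 22.9% and 31.3%. From 200 to under 400 bp it was 39.9% and 54.0%, then 34.9% and 44.45%. The class of 400 bp and over held only 12 gained peaks in experiment 1, with 33.3% proximal against 64.4% of shared peaks.

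**Figure D2:**
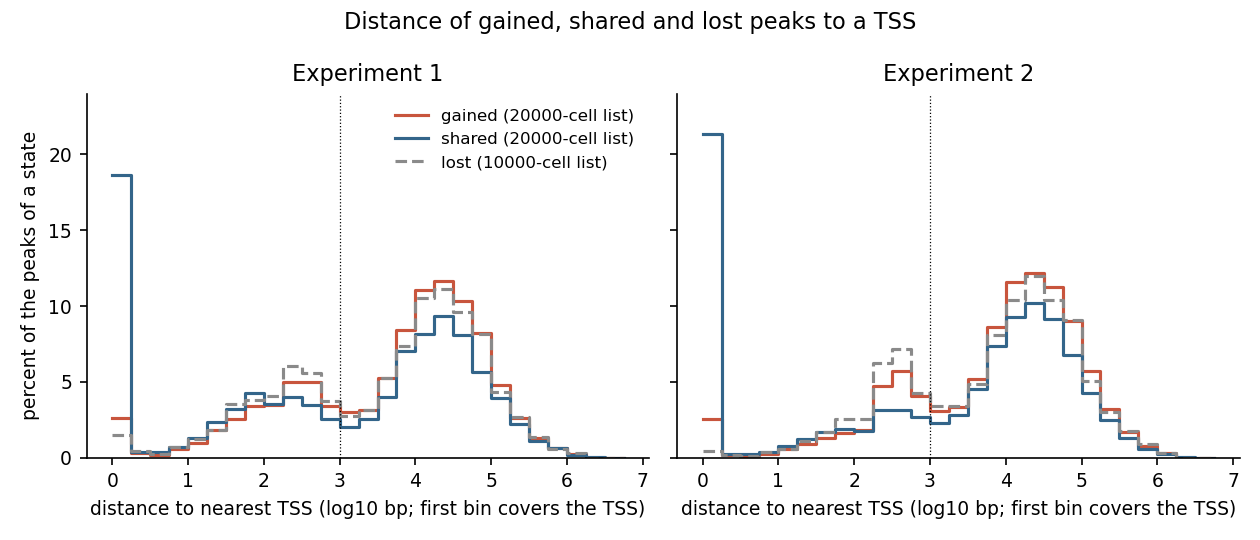
Distance from a peak to the nearest TSS (x axis, log10 bp, with peaks that cover a TSS in the first bin; the dotted line marks 1000 bp) against the percent of peaks of each state (y axis), for experiment 1 (left) and experiment 2 (right). Solid lines are gained (red) and shared (blue) peaks of the 20000-cell list and the dashed line is lost peaks of the 10000-cell list; the first bin holds 18.7% and 21.3% of shared peaks but 2.61% and 2.54% of gained peaks.

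Away from promoters, gained peaks sat in genes and between them in nearly the proportions of shared peaks. Of distal gained peaks 44.6% and 47.0% lay inside the span of a gene, introns and exons together, against 41.4% and 44.4% of distal shared peaks. Distal and outside any gene were 39.1% and 40.3% of all gained peaks, against 32.3% and 34.1% of shared peaks, which mirrors the lower share of gained peaks near a TSS.

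The class of the nearest gene differed little. Among proximal peaks the nearest gene was protein coding for 93.8% and 93.9% of gained and 95.04% and 94.6% of shared peaks, and a long noncoding RNA (lncRNA) gene for 4.52% and 4.58% against 3.53% and 3.79%. Among distal peaks lncRNA genes were nearest for 10.1% and 10.8% of gained and 9.71% and 10.0% of shared peaks. Over all 24470 genes, 84.2% are protein coding and 8.64% lncRNA genes.

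The nearest gene was expressed less often for gained peaks. A gene counted as expressed at a mean of at least 1 CPM in the mRNA of the same experiment, which 47.6% and 46.7% of all genes reached. CPM are not scaled for transcript length, so this is a threshold on counts and ranks no gene against another. In bulk mRNA, fewer cells of a type and less RNA per cell cannot be told apart. Of proximal gained peaks 77.1% and 71.1% had an expressed nearest gene, against 85.5% and 83.1% of proximal shared peaks. Of distal gained peaks 58.7% and 56.2% had one, against 61.8% and 59.5%. Over all peaks the difference between gained and shared was -8.595 percentage points ± 0.399 (SD, n = 2; -8.31 and -8.88), or -5 points with a threshold of 0.1 CPM, and it was smaller among distal peaks than among proximal ones in both experiments. Lost peaks gave 79.3% and 73.6% when proximal and 58.9% and 56.3% when distal.

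These 4 measures, the gained share and the differences in proximal share, width and expressed share, were compared with the values obtained when the cell numbers within an experiment are exchanged. With the roles exchanged, that is, for lost against shared peaks of the 10000-cell lists, the shares without a partner were 31.1% and 17.7%, the proximal differences -12.3 and -11.9 points, the width differences -43 and -56 bp and the expressed differences -6.98 and -8.01 points. The exact permutation test of each over the 4 arrangements gave a two-sided p = 0.5, the smallest that 2 experiments allow, so it could not fall under 0.05. Peaks are not replicates of a cell number, and no test was run over them. The differences between gained and shared peaks were larger than their SD between experiments, and most of the proximal and of the expressed difference was also present between lost and shared peaks of the 10000-cell lists.

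Gained peaks were then looked for in lists that had no part in choosing them. Of those of experiment 1, 40.3% overlapped the 10000-cell list of experiment 2 and 66.8% its 20000-cell list, against 88.9% and 97.2% of shared peaks. Of those of experiment 2, 7.97% overlapped the 10000-cell list and 15.7% the 20000-cell list of experiment 1, against 57.1% and 71.6% of shared peaks. The lists of experiment 1 are the shorter ones. Lost peaks were found again at 37.8% and 64.8% for experiment 1 and 5.45% and 10.9% for experiment 2, each under the gained share. Among peaks of 9 bp the order was the reverse, with 32.7% and 59.7% of lost against 28.1% and 55.7% of gained peaks for experiment 1, and 4.34% and 9.82% against 3.74% and 7.78% for experiment 2.

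The longest list of the series was made by Omni-ATAC, an established protocol used here as a benchmark, from 50000 cells. It held 87.8% and 75.8% of gained peaks, 98.4% and 97.5% of shared peaks and 86.5% and 70.8% of lost peaks. Gained peaks of at least 50 bp were found there in 97.9% and 94.0% of cases, those of 9 bp in 82.8% and 64.1%, proximal ones in 93.8% and 84.3% and distal ones in 85.4% and 73.1%. The Omni-ATAC list from 10000 cells held 34.6% and 18.9% of gained peaks and 81.0% and 69.5% of shared ones. The authors' unified list held 38.7% and 7.62% of gained and 83.6% and 68.5% of shared peaks.

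**Figure D3:**
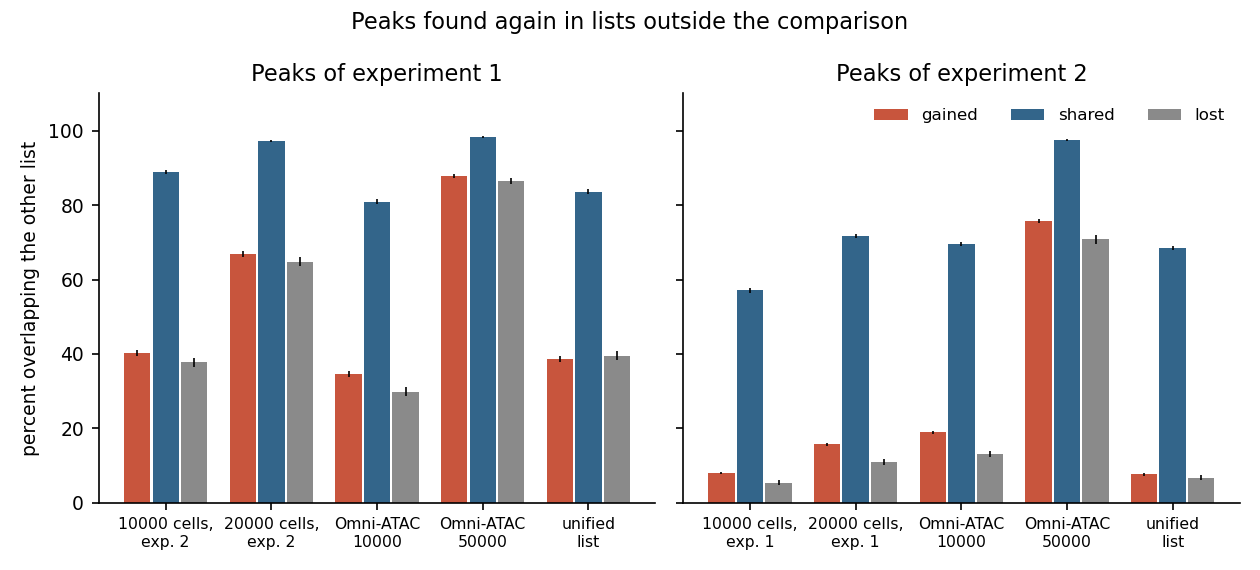
Share of gained (red), shared (blue) and lost (grey) peaks that overlap another list by at least 1 bp (y axis, percent, with 95% Wilson intervals), for peaks of experiment 1 (left) and experiment 2 (right). The lists on the x axis are the 10000-cell and 20000-cell lists of the other experiment, the Omni-ATAC lists from 10000 and 50000 cells and the unified list. The unified list may draw on the lists compared here. Gained and lost bars stand close together and below the shared bar in every list.

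The 4 lists merged into 60762 regions. Of these 12181 (20.0%) were present in all 4, with a median width of 275 bp and 46.2% proximal. The most frequent pattern was presence in the 20000-cell list of experiment 2 alone, with 20824 regions (34.3%), a median of 9 bp and 23.6% proximal. Presence in both 20000-cell lists and neither 10000-cell list was found for 2928 regions (4.82%), with a median of 60 bp, 24.8% proximal and 93.7% also in the Omni-ATAC list from 50000 cells. The reverse, both 10000-cell lists and neither 20000-cell list, was found for 169 regions (0.278%) with a median of 9 bp. Counted as single peaks, 3166 gained peaks of experiment 1 (22.3%) overlapped 3151 gained peaks of experiment 2 (12.2%). Of these 3166, 802 (25.35%) were proximal, 92.5% were in the Omni-ATAC list from 50000 cells, and 312 were at least 50 bp wide in both experiments.

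The widest distal peaks gained in both experiments included a site inside a pluripotency gene. Esrrb codes for an orphan nuclear receptor of the naive state. The peak lay at chr12:86478718-86479131 in experiment 1 (414 bp) and at chr12:86478924-86479130 in experiment 2 (207 bp), 117601 bp downstream of the Esrrb TSS and inside the gene. It was also in the Omni-ATAC lists from 10000 and 50000 cells and in the unified list. The Esrrb promoter itself had no peak in any of the 4 lists, with 74.5 and 82.2 CPM of mRNA in experiment 1 and 82.2 and 85.4 in experiment 2 (10000 then 20000 cells).

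The 4 others of the 5 widest, ranked by mean width, lay near genes with little mRNA. Upstream of Wnt11, which codes for a secreted Wnt ligand, a peak of 309 bp stood in both experiments (chr7:98815424-98815732 in experiment 1), 19380 bp from the TSS. It was in the 5000-cell list of experiment 2 as well, and Wnt11 had 1.61 to 3.08 CPM. Upstream of Kcnj3, a potassium channel gene, the peak was 12 bp wide in experiment 1 (chr2:55347241-55347252) and 628 bp in experiment 2, 88718 bp from the TSS. Upstream of Zfp939 the widths were 212 and 416 bp, 17886 bp from the TSS, and within Zfp324 they were 93 and 489 bp, 5225 bp from it. The Kcnj3 and Zfp939 sites had no peak in the Omni-ATAC list from 50000 cells, and the Kcnj3 site was in the 5000-cell list. At the Wnt11 and Kcnj3 sites, presence at 5000 cells and absence at 10000 cells in experiment 2 shows that list membership was not ordered by input. The Zfp939 and Zfp324 sites were not in the 5000-cell list, and experiment 1 has no such list.

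Promoters were then counted by gene, as having a peak within 1000 bp of the TSS or not. Of 24470 genes, 7601 had one at 10000 cells and 9164 at 20000 cells in experiment 1, and 9922 and 12316 in experiment 2. A promoter peak was gained by 2331 genes (9.53% of all) in experiment 1 and by 2655 (10.9%) in experiment 2, and lost by 768 and 261. Of the genes without a peak at 10000 cells, 13.8% and 18.2% gained one. Over both experiments, 6547 genes (26.8%) had a peak in all 4 lists, 574 (2.35%) gained one in both (189 with each 20000-cell list limited to as many of its widest peaks as its 10000-cell list holds), 24 (0.0981%) lost one in both, and 261 gained in one and lost in the other. The remaining patterns included 11649 genes (47.6%) with none in any list.

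A gain in experiment 1 was often no gain by the lists of experiment 2. Of the 2331 promoters, 67.9% already had a peak in the 10000-cell list of experiment 2 and 90.4% in its 20000-cell list. Of the 2655 gained in experiment 2, 17.9% had a peak in the 10000-cell list of experiment 1 and 31.5% in its 20000-cell list. The 574 promoters gained in both had, by that definition, none in either 10000-cell list.

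Among promoters that were still without a peak, those of expressed genes gained one more often. Among promoters without a peak at 10000 cells in experiment 1, 3.47% of genes under 0.1 CPM gained one, 12.9% at 0.1 to 1 CPM, 25.2% at 1 to 10 CPM, 36.6% at 10 to 100 CPM and 40.4% (202 of 500) at 100 CPM and over. In experiment 2 the shares were 5.45%, 17.6%, 39.3%, 56.3% and 60.8% (169 of 278). Each step was upward in both experiments. As a share of all genes of a class, most of which had a peak already at the higher levels, the gain did not climb in this way: it was 3.28%, 10.0%, 14.0%, 14.5% and 14.4% in experiment 1 and 5.02%, 12.8%, 15.9%, 13.1% and 12.2% in experiment 2. Loss ran the other way: of promoters with a peak at 10000 cells, 18.9% were lost below 0.1 CPM and 6.53% at 100 CPM and over in experiment 1, and 8.87% and 0.812% in experiment 2.

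**Figure D4:**
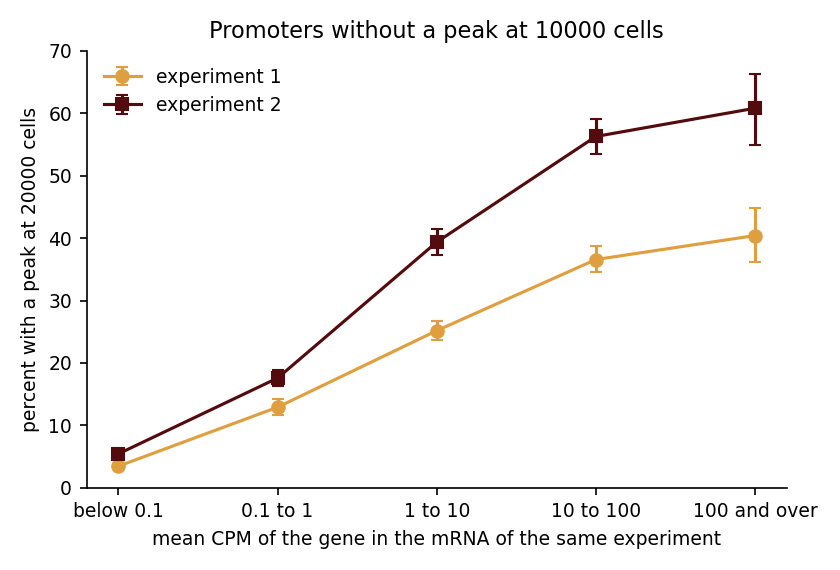
Promoters without a peak at 10000 cells that had one at 20000 cells (y axis, percent with 95% Wilson intervals), by mean CPM of the gene in the mRNA of the same experiment (x axis, 5 classes). Circles are experiment 1 and squares experiment 2; the shares climb from 3.47% and 5.45% below 0.1 CPM to 40.4% and 60.8% at 100 CPM and over.

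By gene class, protein coding genes gained most often among promoters without a peak at 10000 cells, at 15.8% and 21.2% of those without a peak at 10000 cells. The lncRNA genes stood at 7.57% and 10.4%, microRNA genes at 3.71% and 4.79% and pseudogenes at 3.59% and 3.75%. The small class of snoRNA genes stood at 11.6% (13 of 112) in experiment 1 and 4.21% (4 of 95) in experiment 2, so its place in the order differed between the experiments. Olfactory receptor genes, which are silent outside sensory neurons, gained in 1 of 1117 (0.0895%) and 3 of 1117 (0.269%). Vomeronasal receptor genes gained in 0 of 358 in each experiment (upper Wilson bound 1.06%). Additional promoter peaks at 20000 cells were thus rare at these receptor families.

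The 574 promoters gained in both experiments were mostly those of expressed, protein coding genes with short peaks. Of them 66.4% (62.4% to 70.1%) reached 1 CPM over the 4 mRNA libraries, against 84.1% of the 6547 genes open in every list, 15.9% of the genes with no peak and 47.3% of all genes. Protein coding were 91.8%. A promoter peak in the Omni-ATAC list from 50000 cells was present for 568 of the 574 (98.95%), against 19.3% of genes with no peak in any of the 4 lists and 61.1% of all genes. The 5000-cell list of experiment 2 held a promoter peak for 133 of the 574 (23.2%), Smarce1, Eif4a3 and Pgam1 among them, so these were not ordered by input. The widest promoter peak had a median width of 9 bp in experiment 1 and 58.5 bp in experiment 2, and was 9 bp wide in both in 121 genes, and a peak covered the TSS in both experiments in 27. In 359 genes the peaks of the 2 experiments overlapped. Some genes share a peak, and the 574 had 527 distinct nearest peaks in experiment 1. In 4 of the 574 the peak in at least 1 experiment was a shared one that was listed beyond 1000 bp at 10000 cells and reached the limit at 20000 cells.

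Among these 574, the genes with the highest mean CPM are named next. Rps28 and Rplp2 code for ribosomal proteins. For Rps28 the promoter peak was absent at 10000 cells and 9 bp wide at 20000 cells in experiment 1, absent and 61 bp wide in experiment 2, at 75 bp upstream of the TSS in both. Its mRNA stood at 9501 and 9727 CPM in experiment 1 and at 10100 and 7880 CPM in experiment 2 (10000 then 20000 cells). The log2 fold change was -0.17 ± 0.15 (SE, edgeR adjusted p = 0.999), and -0.18 ± 0.13 with the experiment as a replicate block (edgeR adjusted p = 0.998). Rps28 levels at the 2 cell numbers overlapped, while the peak was listed at 1 of them only.

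Ndufa7, which codes for a subunit of respiratory complex I, starts on the other strand next to Rps28 and shares that peak, whose 9 bp are the capitals in its promoter above, 1 bp downstream of its TSS. Ndufa7 had 1996 and 2034 CPM, then 1751 and 1470 CPM. Rplp2 gained peaks of 9 and 143 bp upstream of its TSS, at 5308 and 5726 CPM in experiment 1 and 5648 and 4947 CPM in experiment 2.

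Of the other genes of this kind, Eif4a3, an RNA helicase of the exon junction complex, gained a peak of 50 bp in experiment 1 and one of 262 bp in experiment 2 that covered its TSS. Its mRNA was at 549 and 549 CPM, then 432 and 490 CPM. Snrpb, a core protein of the spliceosome, gained 9 bp peaks in both experiments at different places, 255 and 27 bp upstream. Snu13 (9 and 9 bp), Gnl3 (9 and 20 bp), Park7 (9 and 19 bp) and Atp5mpl (9 and 117 bp) were also among the genes with the highest CPM.

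Promoters lost in both experiments were few, and their peaks were short. The 5 with the highest CPM among the 24 were Prdx4 (9 and 49 bp at 10000 cells), Ptprf (9 and 16 bp), Nubpl (9 and 9 bp), Cdc42se1 (9 and 18 bp) and Npw (9 and 9 bp). Prdx4, a peroxiredoxin gene, had 134.7 and 137.4 CPM in experiment 1 and 195.4 and 195.2 CPM in experiment 2. All 24 had a promoter peak in the Omni-ATAC list from 50000 cells.

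Gene groups were followed through the 4 lists, in the order 10000 and 20000 cells of experiment 1, then of experiment 2. Of the 20 core and naive pluripotency regulators 7, 7, 10 and 16 had a promoter peak, and 0 gained one in both experiments against 2.35% of all genes. Zfp42, Klf2, Klf5, Tbx3 and Utf1 were open in every list. The peak at the Zfp42 TSS widened from 120 to 274 bp in experiment 1 and from 274 to 327 bp in experiment 2, and that of Klf2, a zinc finger factor of the naive state, measured 190, 190, 280 and 503 bp. Nanog, a homeobox factor of the core network, had a promoter peak in the 20000-cell list of experiment 2 alone, 9 bp wide, and Tdgf1, a Nodal coreceptor, and Nr0b1, a nuclear receptor, did too. Sox2 had a peak of 17 bp at 10000 cells and none at 20000 cells in experiment 1, and peaks of 217 and 461 bp in experiment 2.

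Distal peaks whose nearest gene was a pluripotency regulator numbered 62, 80, 87 and 144 in the same order. Of those at 20000 cells 43 (53.8%) and 75 (52.1%) were gained, beside 58.7% and 57.7% of all distal peaks. Around Esrrb there were 7, 11, 11 and 15 such peaks, around Klf5 8, 9, 11 and 17, and around Zfp42 2, 3, 7 and 14. Over the list, 12 genes had more distal peaks at 20000 cells, 5 as many and 3 fewer (Nr5a2, Dppa3 and Fgf4) in experiment 1, and 17 had more, 2 as many and 1 fewer (Dppa3) in experiment 2. Pou5f1, the Oct4 gene, had 4 in each list.

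Housekeeping groups had more promoters with a peak at 20000 cells in each experiment, as did all genes, at 31.1%, 37.45%, 40.5% and 50.3%. Of 79 ribosomal protein genes 39, 52, 56 and 75 had a promoter peak. Of the 40 without one at 10000 cells in experiment 1, 15 gained one (37.5%), and of 23 in experiment 2, 19 did (82.6%), beside 40.4% and 60.8% of all genes at 100 CPM and over. Of 31 proteasome subunit genes 17, 21, 25 and 28 had one, and 0 gained one in both experiments, again near the 2.35% of all genes. Of 15 glycolysis genes 8, 11, 10 and 14 had one. Pgam1, the phosphoglycerate mutase gene, was the glycolysis gene gained in both, with peaks of 9 and 137 bp near its TSS. Hk1 had none within 1000 bp of its annotated TSS in any list.

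Of 36 chromatin regulators 20, 24, 26 and 31 had a promoter peak, and 3 (8.33%, beside 2.35% of all genes) gained one in both experiments: Smarce1 and Arid1a, subunits of the BAF remodelling complex, and Dnmt3b, a de novo DNA methyltransferase. Smarce1 gained peaks of 72 and 319 bp, Arid1a of 9 and 17 bp, and Dnmt3b of 9 and 85 bp. Dnmt3b mRNA stood at 36.3 and 29.0 CPM in experiment 1 and at 23.99 and 31.6 CPM in experiment 2. The log2 fold change was -0.01 ± 0.26 (SE, edgeR adjusted p = 0.999), and 0.02 ± 0.18 with the experiment as a replicate block (edgeR adjusted p = 0.998). The Polycomb genes Ezh2, Suz12 and Jarid2 were open in every list, with Jarid2 going from 9 to 224 bp and from 246 to 326 bp. Kdm2b, Dnmt1 and Dnmt3a had no peak within 1000 bp of the annotated TSS in any list, although Dnmt1 had 156 to 188 CPM.

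Signalling genes of the LIF, BMP, Nodal, FGF and Wnt pathways were mostly open at 10000 cells, with 20, 24, 28 and 28 of 34, and 0 gained a peak in both experiments, which is near the 2.35% of all genes for a list of this size. The LIF receptor chains Lifr and Il6st and the kinase gene Jak1 were open in every list. The Lifr peak at the TSS measured 19, 24, 11 and 409 bp and that of Jak1 35, 164, 24 and 776 bp. Lefty1 and Lefty2, inhibitors of Nodal, had no peak within 1000 bp of the annotated TSS in any list, at 41.0 to 53.5 CPM and 11.4 to 18.8 CPM.

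Developmental genes with little or no mRNA in most cases also gained promoter peaks, more of them in experiment 2. Of 30 developmental regulators, of which 7 reached 1 CPM, 4, 7, 8 and 13 had one, and 5 (19.2% of those without one at 10000 cells) and 7 (31.8%) gained one, beside 13.8% and 18.2% of all genes. Gata2, a haematopoietic factor, gained 9 bp peaks in both experiments at different places, at 0.0729 to 1.48 CPM. Of 39 Hox genes, which pattern the body axis and of which 1 reached 1 CPM, 4, 3, 3 and 13 had a peak. In experiment 1, 1 gained one (2.86%) and in experiment 2, 10 (27.8%). Hoxa7 counted as gained in both, with peaks of 15 and 97 bp nearly 1000 bp from its TSS. In experiment 2 that peak overlapped one listed beyond the limit at 10000 cells. Hoxc13, at 0.146 to 0.535 CPM, had peaks of 220, 287, 297 and 304 bp.

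Of 20 germline genes 2, 5, 3 and 6 had a promoter peak, and Tuba3a, an alpha tubulin gene of the testis, gained one in both experiments, 35 and 9 bp wide at 62 bp upstream of the TSS. Its mRNA stood at 47.9 and 57.5 CPM in experiment 1 and 15.2 and 14.5 CPM in experiment 2. Among markers of other cell types, fibroblast genes had 1, 1, 1 and 2 promoters with a peak of 12, trophoblast and endoderm genes 3, 3, 3 and 4 of 10, and blood genes 0 of 10 in each list. Gata3, a trophoblast factor, counted as gained in both at 0 to 1.03 CPM, but its peaks of 169 and 281 bp lay near the 1000 bp limit and overlapped peaks listed just beyond it at 10000 cells.

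**Figure D5:**
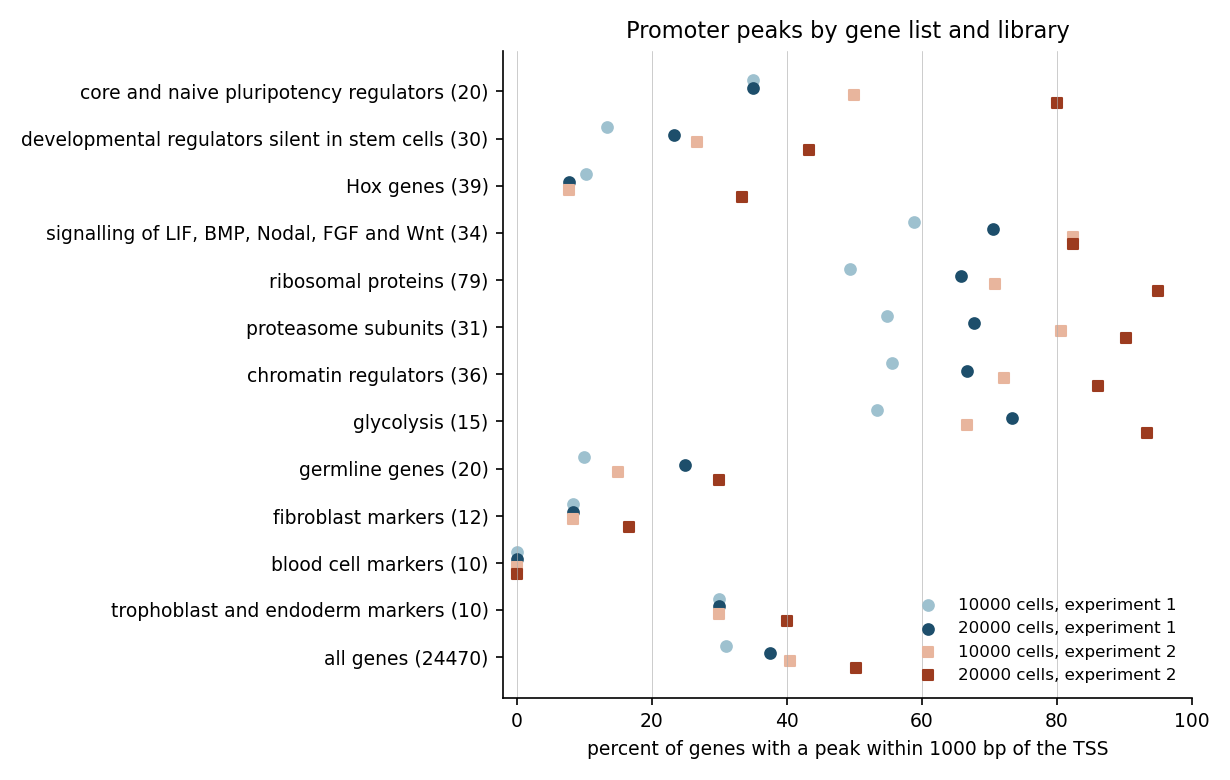
Percent of the genes of each list with a peak within 1000 bp of the TSS (x axis) in the 4 low-input ATAC lists, with the number of genes in brackets (y axis). Circles are experiment 1 and squares experiment 2, pale at 10000 and dark at 20000 cells; ribosomal protein genes go from 39 to 52 of 79 and from 56 to 75, while blood markers stay at 0 of 10.

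The mRNA of the same lysates was compared between 20000 and 10000 cells by edgeR's quasi-likelihood method. Among the 12523 genes that entered it 0 (0%) had a Benjamini-Hochberg adjusted p under 0.05, 101 had an unadjusted p under 0.05, and DESeq2 called 0 with 60 such p-values. With the experiment as a replicate block edgeR called 4 genes (0.0319%), all lower at 20000 cells: ATP8, Rwdd1, Eif3j1 and Lcmt2, named after their values were seen. None of these 4 was among the genes whose promoter was gained in both experiments. Of those 574 genes 412 had enough counts to be tested. Without the block, 3 had an unadjusted p under 0.05 (0.728%, beside 0.807% of all genes tested), and the median log2 fold change was -0.05 beside 0.0028 for all. With the block, which takes up the pairing, 16 did (3.88%, beside 4.52% of all), and the median was -0.04 beside 0.0088. In simulated data the fit without the block recovered 0% of 2-fold and 57.3% of 4-fold changes, and with the block 44.8% and 99%, so changes near 2-fold were poorly detectable.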

How the data were processed

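The series measured open chromatin and mRNA in mouse E14 embryonic stem cells; 4 low-input ATAC lists and the 4 mRNA libraries of the same lysates were compared here, grouped by the cell number and experiment in the titles. The members and gene lists were chosen with earlier results of these data known.

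ATAC peaks were deposited by the authors as 1 interval list per library and 1 unified list, with no score. Per the submitters' processing notes, the tools named are cutadapt, Bowtie2 2.1.0, SAMtools 1.3.1, Picard, bedtools 2.24.0, MACS2 2.1.1, STAR 2.5 and featureCounts of Subread 1.5.0-p1, and the build is mm10. The peak threshold, the making of the unified list, strand use and how reads with several matches were counted are not given in the sources used here. Ribosomal protein genes have near-identical copies, so their counts are uncertain, as are those of overlapping genes. Neighbouring peaks in a list were never closer than 201 bp.

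For 24470 genes the authors deposited raw counts, 13727122 to 20426252 per library at 10000 and 20000 cells. CPM were computed here. TSS were the 5′ ends in the count table, and classes came from a RefSeq gene table for 24467 genes. Overlaps and distances were computed in Python 3.11.15 with pandas 2.3.3 and checked against bedtools 2.31.1 and simulated lists. Intervals are 95% Wilson intervals (statsmodels 0.14.6) and cover counting error only. The ATAC depth is unknown.

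The mRNA counts were fitted with edgeR 4.0.16 in R 4.3.3 (filterByExpr, TMM, then glmQLFit and glmQLFTest with Benjamini-Hochberg adjustment), on the 2 libraries of each cell number without a block. The experiments ran on different days, so the number pairs libraries: over 11575 genes the shift between days at 10000 cells and that at 20000 cells correlated with r = 0.562. With 2 libraries per group, p-values rest on the spread between days. Alternatives were another overlap rule, peaks of at least 50 bp, lists of equal length, no pairing, other TSS distances and CPM thresholds, other normalizations and filters, DESeq2 1.42.0 and leaving out each replicate.

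Named genes are the first 5 of each list gained in both experiments, the first 3 open in all 4 lists and the first 3 with none, the 10 genes of highest mean CPM gained in both, the 5 of highest mean CPM lost in both and the 5 widest distal peaks gained in both. Tbx3, Utf1, Nanog, Tdgf1, Nr0b1, Sox2, Pou5f1, Fgf4, Otx2 and the 4 genes called with a block were named after their values were seen. One of the genes chosen by this rule is not reported here.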

Additional observations from a re-analysis of the deposited data

Results flagged for a closer look

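Of 14 measures set side by side for the 2 experiments, 2 had opposite signs, and these differences between experiments were not tested. The median TSS distance of distal gained peaks minus that of distal shared peaks was -35.5 bp in experiment 1 and 850 bp in experiment 2. The share of distal peaks whose nearest gene was protein coding, gained minus shared, was 1.07 percentage points in experiment 1 and -0.32 in experiment 2.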

How the results depend on the processing

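No gained share, difference between gained and shared peaks or promoter count changed its direction under any alternative run. The median log2 fold change over all genes lay near 0 in every fit and was -0.02 with no filter and without either 20000-cell replicate. The gained share of 52.5% was 54.7% when sharing needed 50% of the shorter peak, 40.6% when a 10000-cell peak within 500 bp counted as a partner, 50.7% with peaks of at least 50 bp, 35.7% (40.2% and 31.15% by experiment) with the 20000-cell list limited to its widest peaks at the length of the 10000-cell list, and 39.8% (31.4% and 48.2%) without the pairing (no replicate block). The proximal difference was -21.7 points with the 500 bp rule, -16.2 with peaks of at least 50 bp, and -16.65 and -13.85 with TSS distances of 500 and 2500 bp. With the 500 bp rule the width difference was -97.5 bp and the expressed difference -10.45 points. The latter was -5 points at 0.1 CPM. With limited lists the promoters gained in both experiments numbered 189; that rule changes length and width together. They numbered, with 1 experiment alone, 2331 to 2655. Limited lists of peaks of at least 50 bp, chosen after seeing the data, gave 33.9%, -12.2 points, -77 bp, -7.82 points and 175 promoters. Without a replicate the other results ranged from 52.4% to 52.6%, from -15.5 to -14.8 points, from -154 to -108 bp and from -8.88 to -8.31 points. Genes called by edgeR numbered 4 with the experiment as a replicate block, 2 with no filter on low counts and 0 in each other fit, including those without 1 replicate. The 50% overlap rule does not apply to promoter counts. Unknown ATAC depth and 2 experiments limit every comparison.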
